A study of Mus musculus with 4 samples.

Results

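Translation initiation and elongation factors were described in CD4 T cells of the mouse colon as the 60 gene columns of the count table whose names begin with Eif1 to Eif6, Eef1 or Eef2, out of 25724 gene columns. The 2 sex-linked copies of the eIF2 gamma subunit and the eIF2 kinases were left out by that choice of names. All 60 symbols were matched to the GENCODE vM21 annotation of the mm10 build. Male B6 mice, 6 weeks old, gave the cells, which were sorted from digested colon lamina propria by CD45, TCRb and CD4 and profiled by inDrops, a droplet method in which oligo dT primers capture polyadenylated RNA. The labels give 4 numbered samples of 1 group, named Btheta_colon, with no second treatment, genotype or time.

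The 1985 barcodes of the table are not tied to any of the 4 samples. Everything below is 1 sample, without replicates, and no difference between cells could be tested. Each cell group is given by its pooled CPM (counts scaled to a common total) and each difference by a log2 ratio of gate-positive over gate-negative cells, with an exact 95% interval that covers counting error only. After barcodes with under 500 counts, under 200 genes or 20% or more mitochondrial counts were set aside, 1050 cells with 1549040 counts were kept. Their median depth was 1235.5 counts and 612 genes per cell, and over all of them a count of 0 allows up to 1.94 CPM. A T cell marker was counted in 1020 of the 1050 cells, and 22 cells held counts of at least 2 epithelial, stromal, myeloid or B cell markers. Muc2, a goblet cell mucin, gave most epithelial counts.

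Initiation factors bring a ribosome and the initiator tRNA to the start codon of an mRNA. The eIF4F proteins bind the cap and unwind the leader, eIF3 and eIF2 with its exchange factor eIF2B load the small subunit, and eIF1, eIF1A, eIF5 and eIF5B take part in start codon choice and subunit joining. Elongation factors then deliver aminoacyl tRNAs (eEF1A, recharged by the eEF1B subunits) and move the ribosome along (eEF2). Many elongation factor mRNAs, like those of the ribosomal proteins, belong to the TOP mRNAs, which begin with a C and a run of pyrimidines and are translated under the control of mTORC1. Naive T cells are small resting cells, and T cells build up their translation machinery when they are activated.

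The start regions of 4 members of the TOP list and of Eif1 are shown because the TOP class is defined by the first bases of the mRNA, and the gate results below are given for that class. Each line holds 60 bases of RefSeq (GRCm38.p6) on the gene's strand, 30 before and 30 from the annotated start. Capitals mark the longest run of a C followed by at least 4 pyrimidines in the window, where there is one.
Eef1a1 (chr9:78481695-78481754, minus strand): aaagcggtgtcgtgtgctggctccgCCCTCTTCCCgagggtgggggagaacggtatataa
Eef2 (chr10:81176601-81176660, plus strand): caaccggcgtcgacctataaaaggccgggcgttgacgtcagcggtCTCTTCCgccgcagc
Eif3f (chr7:108934385-108934444, plus strand): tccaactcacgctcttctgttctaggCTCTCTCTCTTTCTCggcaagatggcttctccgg
Eef1b2 (chr1:63176801-63176860, plus strand): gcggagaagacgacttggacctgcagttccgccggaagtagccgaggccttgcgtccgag
Eif1 (chr11:100319919-100319978, plus strand): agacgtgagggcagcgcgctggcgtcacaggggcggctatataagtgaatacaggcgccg

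In Eif3f the run spanned the annotated start and was 15 bases long. In Eef2 a run of 7 bases began at base 16 from the annotated start. Eef1a1 and Eif1 held the letters TATATAA, which resemble a TATA box, at bases 24 to 30 and 8 to 14 from their annotated starts, on the gene's strand. A TATA box lies before the start of transcription, so the annotated starts of these genes need not be the first base of the mRNA, and the run in Eef1a1 is not presented as its TOP element. TATATAA or its reverse complement TTATATA was present in the 300-base windows of 3.84% of all genes. Of the 45 members in the RefSeq table, 24 held a pyrimidine run somewhere in the 60 bases (53.3%), against 62.7% of all genes and 84.4% of ribosomal protein genes, and 5 of the 6 TOP list members in that table did. Within 5 bases of the annotated start, 10 of the 45 members (22.2%) held a run, against 21.2% of all genes. At the exact first base of the GENCODE principal transcripts it was 2 of 58 members (3.45%) and 1 of 10 TOP list members, against 2.86% of all genes. These matches describe letters in annotated windows, and membership of the TOP list below rests on what is known of these mRNAs, not on them.

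The 60 factors held 35080 counts, 22646 CPM or 2.26% of all counts of the kept cells. The 85 cytosolic ribosomal protein genes beside them held 16.7%. Of the factors, 45 had at least 50 counts, 10 had 10 to 49, 2 had fewer than 10 and 3 were listed at 0. Levels are given without scaling by gene length, so an order between genes is an order of counts and not of molecules.

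Elongation factors held most of the counts. Eef1a1, which carries aminoacyl tRNAs to the ribosome (chr9:78478449-78489151 in GENCODE vM21), had 16357 counts, 46.6% of those of all 60 members. Its level was 10559 CPM (95% Poisson interval 10398 to 10723) and it was detected in 1046 of 1050 cells. Its paralogue Eef1a2, known as the form of muscle and neurons, had 1 count. Among the subunits that recharge eEF1A, Eef1b2 had 1751 CPM and was detected in 72.4% of cells, Eef1g had 523 CPM and Eef1d had 119 CPM. Eef2, the translocase, had 955 CPM and was detected in 59.2% of cells. Eif5a, a hypusine-bearing factor that relieves stalled ribosomes, had 491 CPM, while its paralogue Eif5a2 had 15 counts. Together the elongation factors came to 14408 CPM.

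The eIF3 complex, the scaffold of the small subunit at initiation, came to 3224 CPM over 14 members. Eif3h had 1080 CPM, with Eif3k next at 381 CPM, Eif3f at 318 CPM, Eif3e at 280 CPM and Eif3a at 214 CPM. The 2 near-identical copies of the eIF3j subunit, Eif3j1 and Eif3j2, had 35 and 24 counts, and reads of such copies may be split or lost by a counting step not given in the sources used here. Its subunits act in 1 complex, yet their counts spanned a wide range.

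Cap binding and unwinding factors came to 2150 CPM over 11 members. Eif4g2, which encodes a relative of the eIF4G scaffold that lacks the eIF4E-binding end, had 647 CPM, above Eif4g1 with 97.5 CPM and Eif4g3 with 87.2 CPM. The helicase Eif4a1 (chr11:69666936-69672423) had 340 CPM and its paralogue Eif4a2 (chr16:23107444-23114136) had 277 CPM, intervals 311 to 370 and 251 to 304 CPM. Eif4a3, the paralogue of the exon junction complex, had 178 CPM, and the helicase cofactors Eif4b and Eif4h had 247 and 147 CPM. Eif4e, the main cap-binding protein, was listed at 0 in all 1985 barcodes. Dividing and resting cells both need this gene, so the 0 is not read as absence of its mRNA. The source of the 0 was not tested, and no level is given for Eif4e. The related cap-binding proteins Eif4e2 and Eif4e3 had 101 and 100 counts.

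Among the factors of start codon choice and subunit joining (1942 CPM), Eif1, which guards the choice of start codon, had 1189 CPM and was detected in 68.8% of cells. Its paralogue Eif1b had 83.3 CPM. Eif5, which triggers GTP hydrolysis on eIF2, had 179 CPM and Eif1ax had 115 CPM, while Eif1a had 46 counts. The eIF2 and eIF2B group came to 632 CPM, of which the eIF2 beta subunit gene Eif2s2 gave 287 CPM. The group's list also holds Eif2a (93.6 CPM), which encodes a separate factor and not a subunit of eIF2 or eIF2B. Inhibitors and partners of eIF4E came to 162 CPM. Within them Eif4ebp2 had 62.0 CPM and Eif4ebp1 33.6 CPM, both repressors that mTORC1 releases from eIF4E, while Eif4ebp3 was listed at 0. Eif2c5, also listed at 0, carries a name of the Argonaute series and is in no role group.

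**Figure D1:**
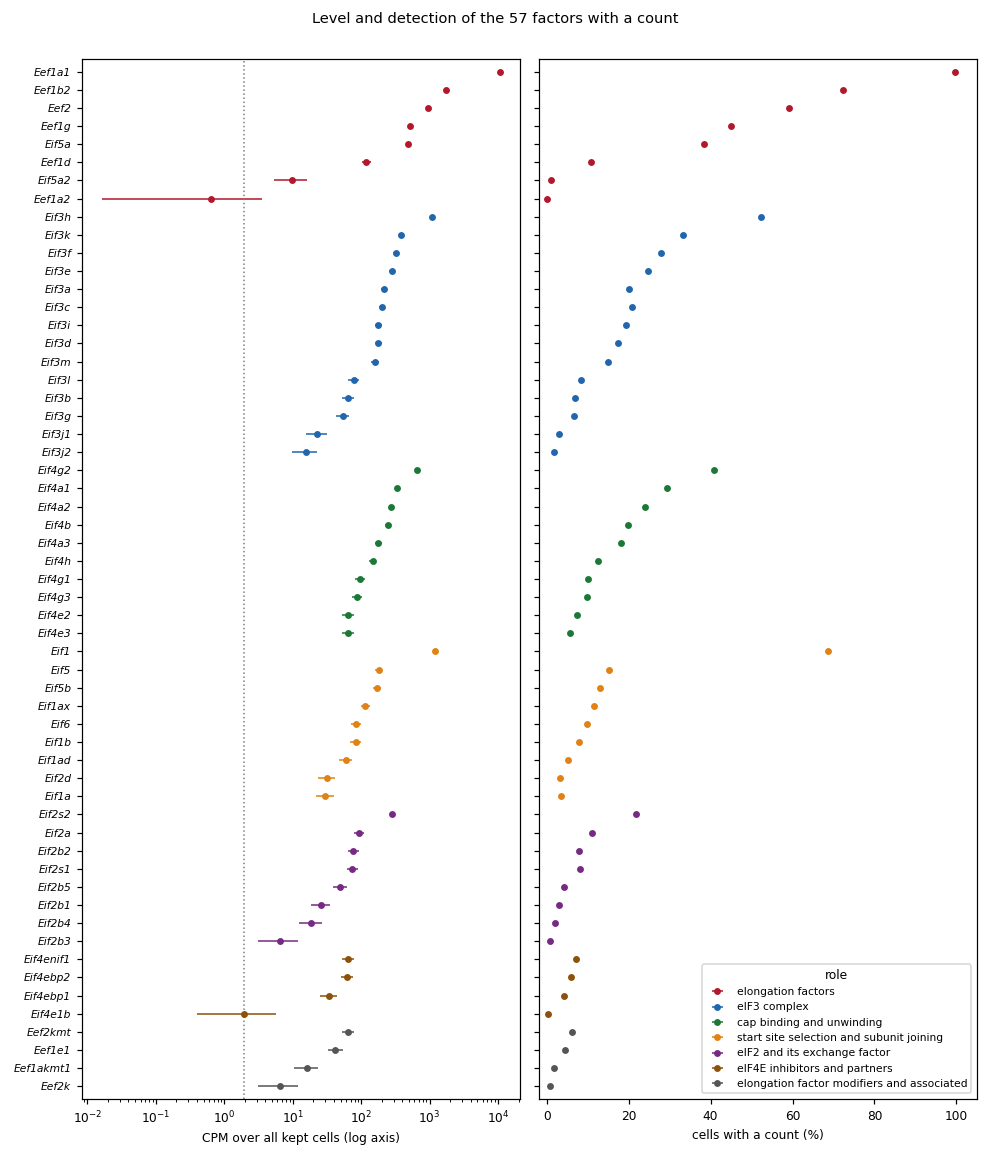
Level (left, CPM on a log axis with exact 95% Poisson intervals) and detection (right, percent of the 1050 kept cells with a count) of the 57 members with a count, grouped and coloured by role. The dotted line marks 1.94 CPM, the level that 3 counts give; Eef1a1 stands at 10559 CPM, above every other member, and Eef1a2 lies under the line.

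The spread of each member over cells was described by its variance over the mean. After each cell was thinned to 500 counts, the variance over the mean across cells was highest for Eif5b (2.13), followed by Eef1d (1.65), Eef1a1 (1.64) and Eef1b2 (1.62), against a median of 1.28 over the 45 members with at least 50 counts. A count drawn at one rate in all cells would give 1. Amplification without a stated collapse of molecular identifiers raises this value as differences between cells do, and the 2 cannot be told apart here. For the same relative difference between cells the value also grows with the mean, so its order is not an order of evenness. After thinning, Eef1a1 had a mean of 5.32 counts and was detected in 97.9% of cells, while Eif5b had a mean of 0.074 and was detected in 4.86%. The thinned factor share per cell and the ribosomal protein share per cell had a Pearson correlation of 0.29 and a Spearman correlation of 0.29 over 1050 cells of 1 table, values that share their library and total. Over 4 depth classes of 262 or 263 cells each, taken in order of depth, the mean factor share after thinning lay between 2.17% and 2.35% and was highest in the deepest class. Median depth was 1371 counts in naive-positive and 1213.5 counts in naive-negative cells, and its part in the naive gate values was not tested.

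Cells were then divided by whether they held at least 1 count of Foxp3, the regulator of regulatory T cells (332 positive and 718 negative cells), of Gata3, a factor of Th2 and tissue regulatory cells (572 and 478), of Nr4a1, an early gene of T cell receptor signalling (296 and 754), or of any of the naive genes Ccr7, Tcf7 and Lef1 (198 and 852). The gates overlap: 201 cells held both Foxp3 and Gata3, 187 held Gata3 and Nr4a1, 107 held Gata3 and a naive gene, 36 held Foxp3 and a naive gene, and 203 cells were in no gate. Gate-negative cells include cells whose transcript was not caught. Median depth was 1304.5 counts in Foxp3-positive and 1215 in cells without Foxp3, 1336 and 1161 for Gata3, 1444.5 and 1192.5 for Nr4a1, and 1371 and 1213.5 for the naive genes. Other markers of 3 gates were higher on the positive side. Regulatory T cell markers without Foxp3 had 4824 CPM in Foxp3-positive and 2174 CPM in cells without Foxp3. Immediate early genes without Nr4a1 had 8311 CPM in Nr4a1-positive and 5392 CPM in Nr4a1-negative cells. Naive markers without the 3 gate genes had 770 CPM in naive-positive and 161 CPM in naive-negative cells. No marker list was set for Gata3. Gata3 was held by 54.0% of naive-positive cells and 54.5% of all kept cells. Cycling markers had 606 CPM in naive-positive and 491 CPM in naive-negative cells. The naive-positive side is therefore not read as resting naive cells alone.

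In naive-positive cells the factors were slightly more abundant as a whole. They summed to 24287 CPM in naive-positive and 22233 CPM in naive-negative cells, a log2 ratio of 0.13 (0.091 to 0.16). Without Eef1a1 the sums were 13122 and 11826 CPM, a log2 ratio of 0.15. Ribosomal protein genes took 19.7% of counts in naive-positive and 15.9% in naive-negative cells, a log2 ratio of 0.31 (0.29 to 0.32). The median log2 ratio was 0.085 over the 45 members, 0.28 over 79 ribosomal protein genes and -0.084 over the 4790 genes with at least 50 counts. With counts capped at 1 per cell the order of the first 2 turned, with medians of 0.12 over the members and 0.048 over the ribosomal protein genes. A cap keeps only whether a cell holds a count, which leaves little room for genes found in most cells. In every other setting the ribosomal median stayed above the member median, for example 0.31 against 0.13 after thinning to 500 counts. With naive-positive cells taken from 2 counts on, the summed ratio was 0.23 and the member median 0.16.

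By role, in the naive gate, elongation factors had 15599 CPM in naive-positive and 14107 CPM in naive-negative cells (log2 ratio 0.14, interval 0.099 to 0.19), and eIF3 had 3481 and 3159 CPM (0.14, interval 0.042 to 0.24). The intervals of the other 5 role groups held 0, and differences between groups were not tested. The elongation factor modifiers and associated genes had 167 CPM in naive-positive and 120 CPM in naive-negative cells (0.48, interval -0.0048 to 0.94). In cells without Foxp3 their ratio was 1.01 (0.45 to 1.56), from 47 counts in naive-positive and 73 in naive-negative cells. Only 1 of these genes, Eef2kmt, had at least 50 counts there, and its ratio shrank after thinning, as given below. Eif4a1, the eIF4F helicase, had 468 CPM in naive-positive and 307 CPM in naive-negative cells (log2 ratio 0.61, interval 0.32 to 0.89) and was detected in 39.9% and 26.9% of them. Eif3k, an eIF3 subunit, had 488 CPM in naive-positive and 354 CPM in naive-negative cells (0.46, interval 0.19 to 0.73). Both lay above the median of the ribosomal proteins.

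Elongation factor genes with many counts were mostly on the higher side in naive-positive cells. Eef1b2 had 2114 CPM in naive-positive and 1659 CPM in naive-negative cells (0.35, interval 0.22 to 0.48). Eef1g had 606 and 502 CPM (0.27, interval 0.030 to 0.51) in naive-positive and naive-negative cells, and Eef2 had 1075 and 925 CPM (0.22, interval 0.038 to 0.39). Eef1a1 was less different, with 11165 CPM in naive-positive and 10407 CPM in naive-negative cells (0.10). Eef1d was the exception, with 99.5 CPM in naive-positive and 124 CPM in naive-negative cells and an interval of -0.92 to 0.25. Eif4e3, a cap-binding protein, was the lowest member, with 11 counts or 35.3 CPM in naive-positive and 89 counts or 71.9 CPM in naive-negative cells (-1.03, interval -2.08 to -0.12).

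Of the 45 members, 2 were at least 1.5-fold higher in naive-positive cells, read against 7.94% of all genes with at least 50 counts, and 2 of 45 were at least 1.5-fold lower, against 17.2%. After thinning to 500 counts, 5 members were at least 1.5-fold higher and 6 lower. In the TOP list, 7 of 10 members were higher and 3 lower in naive-positive cells, with a median of 0.12. Of the 35 other factors, 21 were higher and 14 lower, with a median of 0.063. A difference between TOP list members and the other factors was not tested. Ribosomal protein genes were higher in 77 of 79 cases.

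Epithelial markers had 12.8 CPM in naive-positive and 1960 CPM in naive-negative cells, stromal markers 83.4 and 450 CPM, and cycling markers 606 and 491 CPM. Without the 22 cells that held other cell type markers the member median was 0.11. In cells without Foxp3 the naive gate gave similar sums, 24622 CPM in 162 naive-positive and 22519 CPM in 556 naive-negative cells (log2 ratio 0.13), with ribosomal proteins at 20.7% and 16.4% of counts. Eif4a1 had 479 CPM in naive-positive and 314 CPM in naive-negative cells there (0.61, interval 0.28 to 0.93). Of 42 members with at least 50 counts, 3 were at least 1.5-fold higher, against 8.54% of all genes, and 4 were at least 1.5-fold lower, against 17.5%. The 3 included Eef2kmt, an eEF2 methyltransferase gene, with 26 counts in naive-positive and 32 in naive-negative cells (1.35), which came to 0.10 after thinning.

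**Figure D2:**
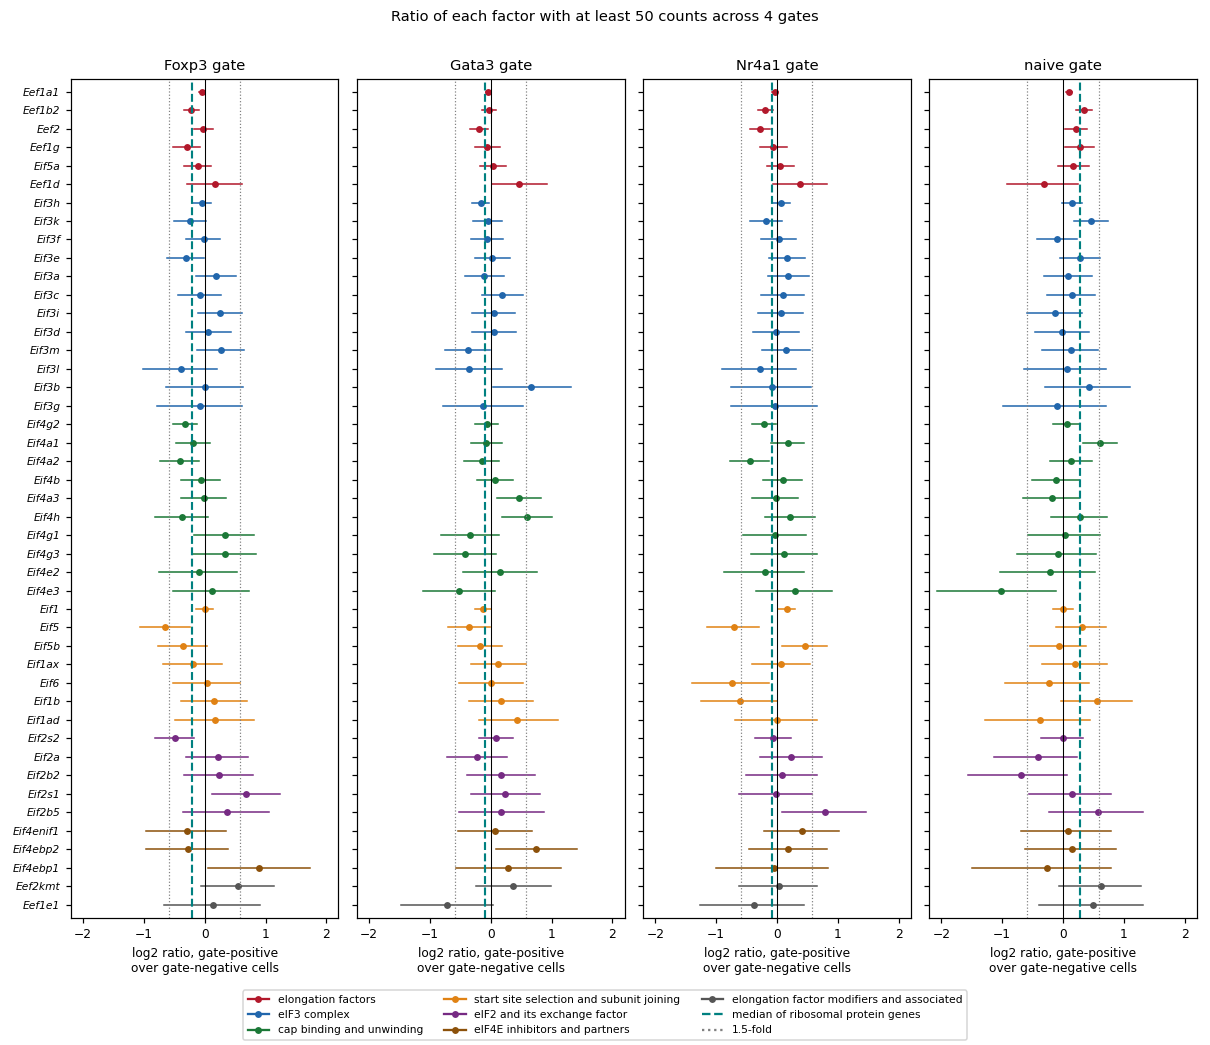
Log2 ratio of gate-positive over gate-negative cells for the 45 members with at least 50 counts, in 4 gates, with exact 95% counting intervals, coloured by role. Dotted lines mark 1.5-fold and the dashed line the median of 79 ribosomal protein genes, which lies at -0.20, -0.094, -0.088 and 0.28 from left to right; most members stand within the dotted lines.

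Foxp3-positive cells had slightly less of the factors. The sums were 21879.5 CPM in Foxp3-positive and 23028 CPM in cells without Foxp3, a log2 ratio of -0.074 (-0.11 to -0.041). Ribosomal protein genes took 15.2% of counts in Foxp3-positive and 17.4% in cells without Foxp3 (-0.19), with 71 of 79 lower. Across the members there was little shift: 20 were higher and 25 lower, with a median of -0.024, against 0.0070 over all genes with at least 50 counts. When positive cells were taken from 2 Foxp3 counts on, the median was -0.17.

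The cap binding and unwinding group was lower as a sum, 1976 CPM in Foxp3-positive and 2236 CPM in cells without Foxp3 (-0.18, interval -0.29 to -0.071), and elongation factors were 13909.5 and 14655 CPM (-0.075, interval -0.12 to -0.035). Eif4g2 had 556 CPM in Foxp3-positive and 693 CPM in cells without Foxp3 (-0.32, interval -0.52 to -0.12). Eif4a2 had 227 and 302 CPM in Foxp3-positive and Foxp3-negative cells (-0.41, interval -0.73 to -0.097). Eif4a1 had 311 CPM in Foxp3-positive and 354 CPM in cells without Foxp3, with an interval of -0.46 to 0.085.

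Eif5, the GTPase activator of eIF2, had 130 CPM in Foxp3-positive and 204 CPM in cells without Foxp3 (-0.65, interval -1.07 to -0.25) and was detected in 14.2% and 15.6% of them. Detection was thus nearly alike while counts per cell were not, and with counts capped at 1 per cell the ratio was -0.26 with an interval that held 0. Eif2s2 showed the same feature, with 225 CPM in Foxp3-positive and 317 CPM in cells without Foxp3 (-0.49) and detection of 21.7% in both. On the other side, Eif4ebp1, a repressor of eIF4E, had 25 counts or 48.6 CPM in Foxp3-positive and 27 counts or 26.1 CPM in cells without Foxp3 (0.90, interval 0.051 to 1.74). Its paralogue Eif4ebp2 had 54.4 CPM in Foxp3-positive and 65.7 CPM in cells without Foxp3. Eif2s1, the eIF2 alpha subunit whose phosphorylation slows initiation, had 99.1 and 61.9 CPM in Foxp3-positive and Foxp3-negative cells (0.68), but the sign turned to -0.95 after thinning to 500 counts, so no direction is given for it.

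Of the 45 members, 2 were at least 1.5-fold higher in Foxp3-positive cells, against 10.3% of all genes, and 1 was at least 1.5-fold lower, against 11%. In the TOP list 2 of 10 members were higher and 8 lower, with a median of -0.049. Of the 35 other factors, 18 were higher and 17 lower, with a median of 0.0035. Epithelial markers had 35.0 CPM in Foxp3-positive and 2331 CPM in cells without Foxp3, stromal markers 17.5 and 555 CPM and cycling markers 416 and 563 CPM. The summed ratio without the cells holding other cell type markers stayed within its counting interval.

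The Gata3 gate gave a smaller difference. The factors summed to 22336 CPM in Gata3-positive and 23056 CPM in Gata3-negative cells (-0.046, interval -0.076 to -0.015), with 23 members higher and 22 lower. Ribosomal protein genes took 16.2% of counts in Gata3-positive and 17.3% in Gata3-negative cells. Eif4h, a cofactor of the eIF4A helicase, had 171 CPM in Gata3-positive and 114 CPM in Gata3-negative cells (0.59, interval 0.18 to 1.01) and was detected in 89 of 572 and 43 of 478 of them. Eif4ebp2 had 74.9 CPM in Gata3-positive and 45.0 CPM in Gata3-negative cells (0.74, interval 0.092 to 1.41), and the eIF3 subunit Eif3b had 76.0 and 48.0 CPM (0.66, interval 0.036 to 1.32).

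Among further members of the Gata3 gate, Eef1d had 135 CPM in Gata3-positive and 97.4 CPM in Gata3-negative cells (0.47). The 4 lowest members by the naming rule followed. Eif3m, an eIF3 subunit, had 141 CPM in Gata3-positive and 183 CPM in Gata3-negative cells (-0.38), and Eif5 had 160 and 205 CPM (-0.36). The translocase Eef2 had 898 CPM in Gata3-positive and 1030 CPM in Gata3-negative cells (-0.20), and Eif3h had 1026 and 1151 CPM (-0.17). With counts capped at 1, the interval of each of these 4 held 0.

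Of 45 members, 3 were at least 1.5-fold higher in Gata3-positive cells, against 10.1% of all genes, and 1 was at least 1.5-fold lower, against 8.23%. Epithelial markers had 18.1 CPM in Gata3-positive and 3616 CPM in Gata3-negative cells, stromal markers 38.6 and 823 CPM, and immediate early genes 7918 and 5275 CPM. Without the 22 cells holding other cell type markers, the summed log2 ratio of the factors was -0.077. Within Foxp3-positive cells, the factors summed to 21514 CPM in 201 Gata3-positive and 22539 CPM in 131 Gata3-negative cells (-0.067), and with counts capped at 1 the sign turned to 0.038. There, Eif4a2 had 175 CPM in Gata3-positive and 322 CPM in Gata3-negative cells (-0.88, interval -1.42 to -0.33), while Eif4a3 had 208 and 120 CPM (0.80, interval 0.087 to 1.56) and Eif5b, which joins the subunits, had 172 and 92.6 CPM (0.89, interval 0.091 to 1.77). Of 30 members with at least 50 counts, 4 were at least 1.5-fold higher, against 11.4% of all genes, and 1 at least 1.5-fold lower, against 9.16%.

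Nr4a1-positive cells did not stand apart in the sum of the factors. It was 22336 CPM in Nr4a1-positive and 22789 CPM in Nr4a1-negative cells, a log2 ratio of -0.029 with an interval of -0.062 to 0.0037. A difference of the sum was not detectable at this depth. Ribosomal protein genes took 15.9% of counts in Nr4a1-positive and 17.1% in Nr4a1-negative cells (-0.10). Elongation factors had 13963 CPM in Nr4a1-positive and 14612 CPM in Nr4a1-negative cells (-0.066, interval -0.11 to -0.024), while the intervals of the other 6 role groups held 0.

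Single members rest on fewer counts than the sum and so scatter more by counting error. Of the 45 members with at least 50 counts, 24 were higher and 21 lower in Nr4a1-positive cells, with a median of 0.028. Those named here include the highest and lowest by the naming rule. Eif5 had 125 CPM in Nr4a1-positive and 204 CPM in Nr4a1-negative cells (-0.71, interval -1.14 to -0.29), and was detected in 12.5% and 16.2% of them. Eif6, which keeps the large subunit from joining early, had 28 counts or 57.4 CPM in Nr4a1-positive and 102 counts or 96.1 CPM in Nr4a1-negative cells (-0.74, interval -1.40 to -0.13). Eif4a2 had 221 CPM in Nr4a1-positive and 302 CPM in Nr4a1-negative cells (-0.45), and Eef2 had 834 and 1010.1 CPM (-0.28, interval -0.44 to -0.11). These 4 stood lowest by the naming rule. The highest were Eif2b5, the catalytic subunit of eIF2B, with 69.7 CPM in Nr4a1-positive and 40.5 CPM in Nr4a1-negative cells (0.78, interval 0.089 to 1.47), and Eif5b with 209 and 153 CPM (0.45, interval 0.082 to 0.82). Eif1 had 1281 CPM in Nr4a1-positive and 1147 CPM in Nr4a1-negative cells (0.16), and the ratio was -0.017 with counts capped at 1. The scarce eIF3j copies, under 50 counts each, had 19 counts in Nr4a1-positive and 16 in Nr4a1-negative cells (Eif3j1, log2 ratio 1.37) and 13 and 11 counts (Eif3j2, 1.36). Reads may be split between these near-identical copies, so their ratios are not independent of each other.

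Of 45 members, 1 was at least 1.5-fold higher in Nr4a1-positive cells, against 8.04% of all genes, and 3 were at least 1.5-fold lower, against 9.25%. The 3 were Eif5, Eif6 and Eif1b, and without cells holding cycling markers 1 member was. Start codon choice and subunit joining, the group that holds them, had 4 of 7 members higher and 3 lower, with a median of 0.0022. Epithelial markers summed to 1960 CPM in Nr4a1-positive and 1388 CPM in Nr4a1-negative cells, but 5 of the 6 with at least 50 counts were at least 1.5-fold lower and 1 higher, with a median log2 ratio of -2.80. Stromal markers had 59.5 CPM in Nr4a1-positive and 522 CPM in Nr4a1-negative cells, and myeloid markers 123 and 65.0 CPM. Without the 22 cells that held at least 2 such markers the member median was -0.0096, against 0.028 with them. Within Foxp3-positive cells the sums were 21391 CPM in 123 Nr4a1-positive and 22215 CPM in 209 Nr4a1-negative cells, with ribosomal proteins at 15.3% and 15.2%. Eef2 had 740 CPM in Nr4a1-positive and 1085 CPM in Nr4a1-negative cells there (-0.55, interval -0.84 to -0.27). Of 30 members, 2 were at least 1.5-fold higher, against 7.65% of all genes, and 2 at least 1.5-fold lower, against 9.94%.

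**Figure D3:**
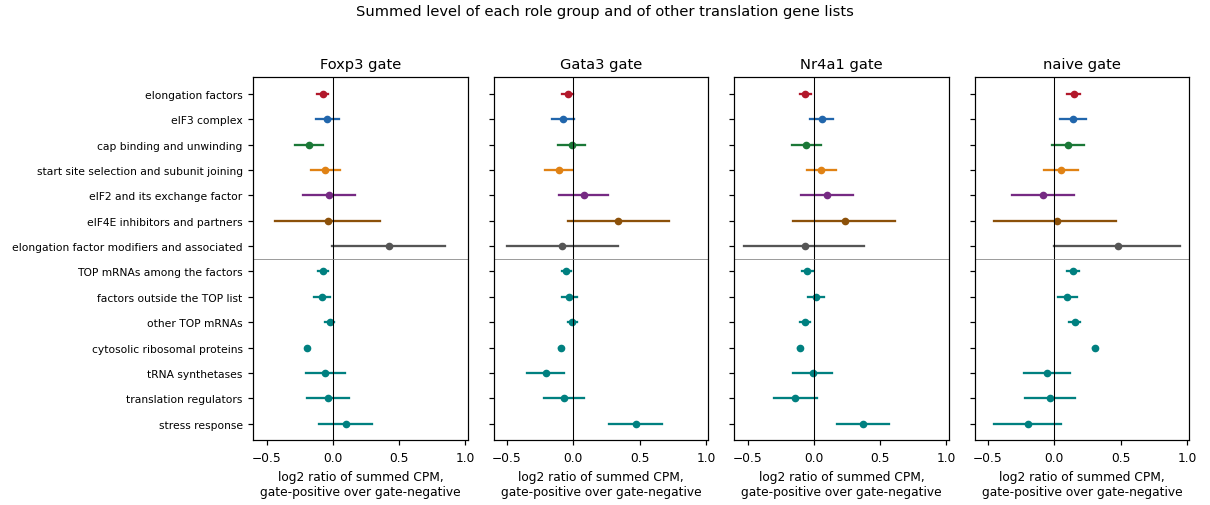
Log2 ratio of the summed CPM of gate-positive over gate-negative cells for the 7 role groups (above the line) and 7 other gene lists (below it), with exact 95% counting intervals. In the naive gate elongation factors and eIF3 stand at 0.14 and ribosomal proteins at 0.31; stress response genes stand at 0.47 and 0.37 in the Gata3 and Nr4a1 gates.

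Among the 26 entries that the naming rule gave over the 4 gates, a member counting once per gate, 6 kept an interval without 0 when counts were capped at 1 per cell and 8 did so after thinning to 500 counts. Only 3 of the 26 did so as deposited, capped and thinned: Eif4a2 in the Foxp3 gate (lower in Foxp3-positive cells), Eif4h in the Gata3 gate (higher in Gata3-positive cells) and Eif4a1 in the naive gate (higher in naive-positive cells). After thinning the log2 ratios were -0.79 for Eif4a2, 1.08 for Eif4h and 0.62 for Eif4a1. The 26 entries were picked by their intervals in these same counts, which capping and thinning use again. How many other genes would keep such intervals was not computed, so the 3 are a description and not independent support.

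The balance of the 2 eIF4A helicases was compared by their counts. Eif4a1 made up 61.1% of the counts of Eif4a1 and Eif4a2 in naive-positive (exact binomial interval 54.6 to 67.3%) and 53.1% (49.3 to 56.8%) in naive-negative cells, with overlapping intervals. It was 62.5% (56.6 to 68.1%) in Nr4a1-positive and 51.9% (48.0 to 55.7%) in Nr4a1-negative cells, where the intervals did not overlap. In the Foxp3 gate it was 57.8% and 54.0%, and in the Gata3 gate 55.7% and 54.3%, in positive and negative cells, with overlapping intervals in both. Within Foxp3-positive cells the Gata3 gate gave 65.5% (57.8 to 72.6%) in Gata3-positive and 45.9% (36.3 to 55.7%) in Gata3-negative cells. The Nr4a1 gate there gave 64.6% (55.0 to 73.4%) in Nr4a1-positive and 53.0% (45.1 to 60.9%) in Nr4a1-negative cells, with overlapping intervals. In Foxp3-negative cells the naive gate gave 58.3% (51.2 to 65.1%) and 52.1% (47.5 to 56.7%) in positive and negative cells, also with overlapping intervals. This share was computed after the ratios had been seen, and the intervals cover counting error only. The share of Eif1 among counts of Eif1 and Eif1b lay between 91.4% and 95.4% on all 8 sides of the 4 gates.

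Other translation genes were set beside the factors from fixed lists. Further TOP mRNAs, of which Tpt1, Rack1 and Naca had most counts, summed to 22163 CPM in naive-positive and 19934 CPM in naive-negative cells (log2 ratio 0.15, interval 0.11 to 0.19), a ratio near that of the factors. Of 20 aminoacyl tRNA synthetases, which charge tRNAs, 16 had at least 50 counts. Their sums were 1052 CPM in Gata3-positive and 1217 CPM in Gata3-negative cells (-0.21, interval -0.35 to -0.072), and the intervals of the other 3 gates held 0. Translation regulators, led by Pdcd4, an inhibitor of eIF4A, gave intervals that held 0 in all 4 gates. Stress response genes, led by Ppp1r15a, which restores eIF2 activity, had 665 CPM in Gata3-positive and 480 CPM in Gata3-negative cells (0.47, interval 0.27 to 0.67), and 693 CPM in Nr4a1-positive and 535 CPM in Nr4a1-negative cells (0.37, interval 0.17 to 0.57). Immediate early genes were higher on the same sides, by the values given above, and their part in this was not tested.

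Release and recycling factors summed to 237 CPM in Foxp3-positive and 298 CPM in cells without Foxp3 (-0.33, interval -0.64 to -0.022), with Gspt1 giving most counts. The lower sum was not shared by the group. Of the 3 with at least 50 counts, 2 were higher and 1 was lower in Foxp3-positive cells, with a median of 0.051. Mitochondrial translation factors and the hypusine enzymes that modify eIF5A gave intervals that held 0 in all 4 gates.

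Per cell, the differences were small beside the spread, which at 500 counts per cell includes counting error as well as differences between cells. After thinning to 500 counts, the factors took a median of 2.4% of counts in naive-positive (quartiles 1.8 and 2.8%) and 2.2% in naive-negative cells (1.6 and 2.8%). The medians were 2.0% in Foxp3-positive and 2.2% in cells without Foxp3, and 2.2% on both sides of the Gata3 and Nr4a1 gates. A share at 500 counts moves in steps of a whole count, so equal or neighbouring medians are resolved no finer than that step. Ribosomal proteins took a median of 17.9% in naive-positive and 15.6% in naive-negative cells, and 14.6% in Foxp3-positive and 16.6% in cells without Foxp3. The quartile ranges of the factor share overlapped in all 4 gates.

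**Figure D4:**
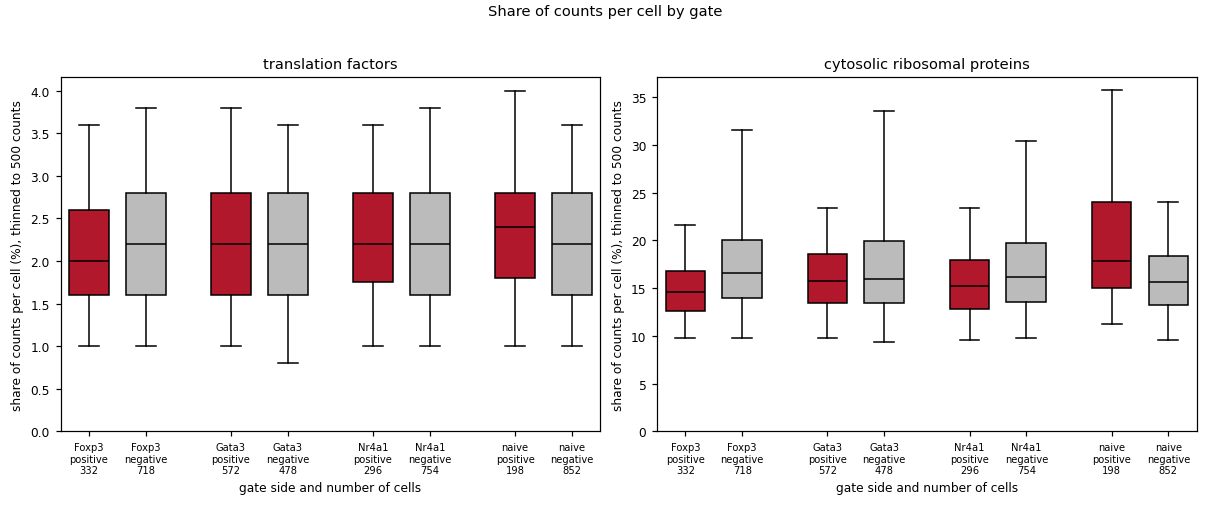
Share of counts per cell taken by the 60 factors (left) and by 85 ribosomal protein genes (right), after each cell was thinned to 500 counts, in gate-positive (red) and gate-negative (grey) cells with the number of cells below. Boxes show the median and quartiles and whiskers the 5th and 95th percentiles over cells, which are not replicates; the factor boxes overlap in every gate, and the ribosomal box of naive-positive cells reaches from 15.1 to 24.0%.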

How the data were processed

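The authors deposited raw counts, 1 row per barcode and 1 column per gene. TopHat2, SAMtools and mm10 are named, without version, in the submitters' processing notes. How reads were counted, whether molecular identifiers were collapsed and where reads shared by paralogues went is not given in the sources used here. Totals per kept cell ran from 501 to 13023 counts.

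Members, gene lists, gates and alternatives were chosen with earlier results of these data known. Gate-positive cells had at least 1 count of a gate gene. Counts were pooled per side, scaled to CPM, and compared as log2 ratios with exact conditional (Clopper-Pearson) 95% intervals in Python 3.11.15 with scipy 1.17.1. The intervals were tested on simulated Poisson counts only, so that test does not cover the wider spread of these data. Counts varied more than Poisson counts would (median variance over mean of 1.92 before thinning), so intervals are too narrow for differences between cells. Medians and 1.5-fold counts used genes with at least 50 counts in the cells compared, and gate genes were left out of the background. Scrublet (scanpy 1.11.5) called 9 doublets (0.857%), which were kept, since the choice of cells has no doublet step, and left out as an alternative. Other alternatives were thinning to 500 counts, capping at 1 count per cell and gene, per-cell means, another denominator, and leaving out shallow, cycling or other cells.

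Named members are the 10 of highest CPM, up to 4 highest and 4 lowest per gate whose interval leaves out 0, the TOP list and the paralogues. Sequences are from RefSeq (GRCm38.p6).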

Additional observations from a re-analysis of the deposited data

Results flagged for a closer look

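A signal appeared in barcodes outside the comparisons. In the 935 barcodes set aside by the filters on depth, genes and mitochondrial share, the 60 factors summed to 10012 CPM (95% Poisson interval 9498 to 10547, from 1420 of 141827 counts), above the 21.2 CPM that a count of 0 allows there. The sum over the 1050 kept cells was 22646 CPM. Ribosomal protein genes took 7.52% of counts in the barcodes set aside and 16.7% in the kept cells. The source of these counts was not tested.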

How the results depend on the processing

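Each median and count was recomputed in 7 comparisons under 11 settings, and each sum under the 9 that do not change the count minimum: of these values 207 stayed close, 86 moved and 1 reversed. Of the single members, 332 stayed close, 16 moved and 3 reversed: Eif1 in the Nr4a1 gate capped (-0.017), and thinned Eif2s1 in the Foxp3 gate (-0.95) and Eef1a1 in the Nr4a1 gate of Foxp3-positive cells (0.081). No sum of the 4 gates over all kept cells turned sign. The summed log2 ratio reversed only in the Gata3 gate of Foxp3-positive cells with capped counts (0.038), and thinned it was -0.0012 there. Capped, the Nr4a1 sum was -0.063. With gates at 2 counts the sums were -0.12 (Foxp3), -0.064 (Nr4a1), 0.23 (naive) and 0.21 (naive in Foxp3-negative cells), and the medians -0.17, -0.055 and 0.16 in the Foxp3, Nr4a1 and naive gates. Per-cell means put the Foxp3 sum at -0.11. With a total free of ribosomal and mitochondrial genes the sums were -0.13 (Foxp3), -0.080 (Gata3), 0.20 (naive) and 0.21 (naive in Foxp3-negative cells), and the 2 naive medians 0.16 and 0.17. Without other cell types the Gata3 sum was -0.077. The cause of these moves was not tested, apart from members gained or lost with the count minimum.

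Counts of members at least 1.5-fold apart rest on few genes. With members from 10 counts on they were 6 higher (Foxp3), 4 lower (Gata3), 6 higher (Nr4a1), 4 higher and 5 lower (naive), 9 and 5 (Gata3 in Foxp3-positive), 5 and 6 (Nr4a1 in Foxp3-positive), and 6 and 8 (naive in Foxp3-negative cells). From 200 counts on they were 0 or 1 in every moved case. Thinning gave 7 lower (Foxp3), 5 higher and 3 lower (Gata3), 3 and 5 (Nr4a1), 5 and 6 (naive), and 3 and 6 lower in the 2 comparisons within Foxp3-positive cells. Capping gave 0 or 1 in every moved case but the 2 lower in the naive gate of Foxp3-negative cells. Gates at 2 counts gave 5 lower in the Foxp3 and Nr4a1 gates and 1 higher in the Gata3 gate and in the naive gate of Foxp3-negative cells. Per-cell means gave 0 lower (Gata3), 0 higher (Nr4a1), 7 higher and 3 lower (Gata3 in Foxp3-positive), 0 lower (Nr4a1 in Foxp3-positive) and 1 higher (naive in Foxp3-negative cells). Cells from 1000 counts on gave 3 lower (Foxp3), 2 lower (Gata3) and 1 lower (Nr4a1 in Foxp3-positive cells). The total without ribosomal and mitochondrial genes gave 4 higher (naive) and 1 lower (Nr4a1 in Foxp3-positive cells). Leaving out doublets, other cell types or cycling cells gave 0, 1 or 2 in every moved case.

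Depth limits single members: Eif4ebp1 rests on 52 counts and Eif2b5 on 77, and a side with under 30 counts gives intervals wider than 1 on the log2 scale.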
